A study of Mus musculus with 6 samples.

Results

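The genes described here encode the enzymes of glycolysis, the carriers and kinases that set its flux, and further transcripts that respond to low oxygen. They are a fixed list of 38 gene symbols among the 55291 in the table, chosen with earlier results of these data known. The list holds 17 glycolytic enzymes, 7 genes of transport and flux control, 12 other targets of the hypoxia-inducible factor (HIF) and 2 HIF alpha subunits. Genes had to average 10 or more normalised counts across the 6 libraries, and 37 of the 38 did. Aldoc, the brain form of aldolase, lay just outside at a mean of 7.79, and Car9 (17.5) and Epas1 (26.7) lay just inside.

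RNA was sequenced from Lewis lung carcinoma (LLC) cells, a mouse tumour line grown in DMEM with serum, per the labels. One group received Cas9 with a guide against calreticulin and is labelled Calr KO (n = 3). The other received Cas9 with a control guide and carries the genotype label WT (control, n = 3). The plasmids were delivered transiently, cells were kept for 10 days, seeded in 3 wells a group and harvested 48 hours later, and all 6 carry the same batch label. The 3 libraries of a group are therefore wells of 1 cell population, and the p-values measure the spread between wells. All samples are labelled untreated, no exposure to low oxygen is named, and oxygen, lactate and protein were not measured.

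Glycolysis turns glucose into pyruvate in the cytosol, and lactate dehydrogenase then regenerates NAD+ by making lactate, which tumour cells export. HIF is a pair of an oxygen-sensitive alpha subunit and the stable partner ARNT. With oxygen present, prolyl hydroxylases (the Egln genes) mark the alpha subunit for destruction through VHL. When oxygen is scarce the alpha subunit persists and HIF binds a short core in DNA, ACGTG or GCGTG. Its targets include most glycolytic genes as well as genes of angiogenesis, mitophagy and pH control.

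Because that core is short, the windows in front of the members were read directly. RefSeq sequence (GRCm38.p6) was found for 34 of the 38 members, and 250 bases before 1 start site of each were searched on both strands for ACGTG and for GCGTG. For a member with several start sites, the one nearest the 5′ end of its GENCODE M21 gene was used. For the windows of tested genes and of all genes, the first start site listed was used. The shares that follow are therefore not fully like for like. At least 1 match to either lay in 26 of 34 windows (76.5%), against 58.0% of the 9702 windows of tested genes and 38.6% of all 27025. ACGTG alone lay in 47.1% of the member windows and in 22.3% of those of tested genes. GCGTG lay in 50% of the member windows, near the 46.7% of tested genes. Of the 17 enzyme windows 29.4% held ACGTG, 41.2% held GCGTG and 64.7% held either. The palindrome CACGTG, which holds ACGTG on both strands and is also the E-box read by MYC and by the member Mxi1, lay in 5 member windows (14.7%) and in 8.49% of those of tested genes. The windows printed are those of Pgk1, the enzyme with the smallest p, of Ldha with 5 matches, a number that Bnip3 shares and no other member exceeds, of Adm with the largest difference among the targets whose groups did not overlap, and of Hif1a itself. Capitals mark the matches, which read CACGT or, for the other core, CACGC where they lie on the opposite strand; all 4 lie on the plus strand and each reads 5′ to 3′ up to the base before the RefSeq start. They are, in order, chrX:106186850-106187099, chr7:46845554-46845803, chr7:110627407-110627656 and chr12:73907617-73907866. The Hif1a window lies inside the span that GENCODE M21 gives the gene (73901375 to 73947530 on chromosome 12). So does the Ldha window (46841475 to 46855627 on chromosome 7). A palindrome was counted on both strands, so the number of matches can exceed the number of marked stretches. A match is a run of letters and not a measured binding site.

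Pgk1: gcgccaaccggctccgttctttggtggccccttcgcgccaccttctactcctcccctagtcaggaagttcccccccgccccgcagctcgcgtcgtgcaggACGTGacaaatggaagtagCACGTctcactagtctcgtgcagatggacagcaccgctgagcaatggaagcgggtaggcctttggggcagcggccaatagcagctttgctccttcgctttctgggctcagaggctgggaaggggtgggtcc
Ldha: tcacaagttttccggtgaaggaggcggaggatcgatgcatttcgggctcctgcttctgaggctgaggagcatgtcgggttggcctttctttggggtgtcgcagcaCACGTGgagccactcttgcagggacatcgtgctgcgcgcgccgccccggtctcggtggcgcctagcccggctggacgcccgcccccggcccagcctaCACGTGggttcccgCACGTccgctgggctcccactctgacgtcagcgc
Adm: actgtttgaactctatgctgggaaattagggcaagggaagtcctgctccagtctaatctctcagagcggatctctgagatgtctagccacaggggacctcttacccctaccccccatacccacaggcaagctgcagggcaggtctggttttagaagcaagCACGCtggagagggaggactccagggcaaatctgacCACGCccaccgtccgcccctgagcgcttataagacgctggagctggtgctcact
Hif1a: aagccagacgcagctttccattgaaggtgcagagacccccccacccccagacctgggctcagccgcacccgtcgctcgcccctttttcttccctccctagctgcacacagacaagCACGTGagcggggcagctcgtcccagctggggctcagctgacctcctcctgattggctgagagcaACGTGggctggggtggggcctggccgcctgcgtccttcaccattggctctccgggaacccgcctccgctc

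The windows held 2 matches for Pgk1, 5 for Ldha, 2 for Adm and 3 for Hif1a. These counts take each CACGTG on both strands, of which Ldha held 2 and Hif1a 1. Whether holding a match goes with the change between groups was not tested. Over the 25 tested members with a match the median log2 change was -0.07, with 20 below 0, and over the 8 with a window but no match it was -0.08, with 6 below 0. These pooled values mix the roles. All 6 genes of transport and flux control with a window held a match, with a median of 0.04 and 2 below 0. Among enzymes 9 of 10 with a match were below 0 (median -0.07), and 4 of 6 without (median -0.05). Among other HIF targets 8 of 8 with a match were below 0 (median -0.14), and 2 of 2 without (median -0.18). Vegfa, Mxi1 and Aldoa, described below, had no match in this window, which says nothing of sites elsewhere.

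The guide's own target was checked first. Calr held 4467, 4216 and 4453 normalised counts in the Calr KO libraries and 10711, 10202 and 11047 in the controls, so the groups stood well apart. The log2 change was -1.28 (SE 0.04, limma adjusted p = 7.9e-07), a 2.43-fold lower level. Columns summed to 14040692 to 14099985 normalised counts. Of 8 lung epithelial markers, Krt8 and Krt18 reached a mean of 10 and Epcam, Nkx2-1, Sftpc and Scgb1a1 were listed at 0 throughout; the list summed to 4961 to 5240 in Calr KO and 4635 to 4932 in control. Of 6 fibroblast markers 5 reached that mean, led by Pdgfra, and they summed to 2538 to 2905 and 2320 to 2763. Macrophage markers (1 of 8 at that mean, with Adgre1, C1qa and C1qb listed at 0) summed to 65.1 to 114 and 75.5 to 97.1, and endothelial ones (3 of 6, Emcn listed at 0) to 57.0 to 66.5 and 47.6 to 70.6. Of 8 lymphocyte markers 0 reached it, 6 were listed at 0, and the sum was at most 3.15. The mitochondrial share of counts was 2.89%, 2.90% and 2.97% in Calr KO and 2.80%, 2.78% and 2.78% in control. The epithelial sum, led by Krt8 at a mean of 4621, and the mitochondrial share were higher in all 3 Calr KO libraries. Krt8 alone overlapped between groups, at 4634 in Calr KO replicate 2 and 4637 in control replicate 1. The part of that sum and that share in the results that follow was not tested.

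No glycolysis or hypoxia gene of the list passed the test between Calr KO and control cells. Most glycolytic enzymes and all 12 other HIF targets had values below control, while the genes of transport and flux control lay on both sides. Of 37 tested members 30 had a log2 change below 0, against 49.9% of all 13199 genes tested, and the median was -0.07 against 0.00036. By limma 0 of 37 passed at an adjusted p of 0.05, where 0.280% of all genes did. Voom weights also called 0. At an unadjusted p under 0.05, 12 members were lower and 0 were higher, while 4.28% of all genes were lower and 4.60% higher at that level. In 10 members every Calr KO library lay below every control, as in 7.28% of all genes. In 0 members every one lay above, as it did in 999 of the 13199 genes tested. With a constant prior variance, rather than one modelled on expression level, 5 members were lower at an unadjusted p under 0.05 (3.87% of all genes). A test of the list against other genes was not made, and the list was chosen with earlier results of these data known.

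**Figure D1:**
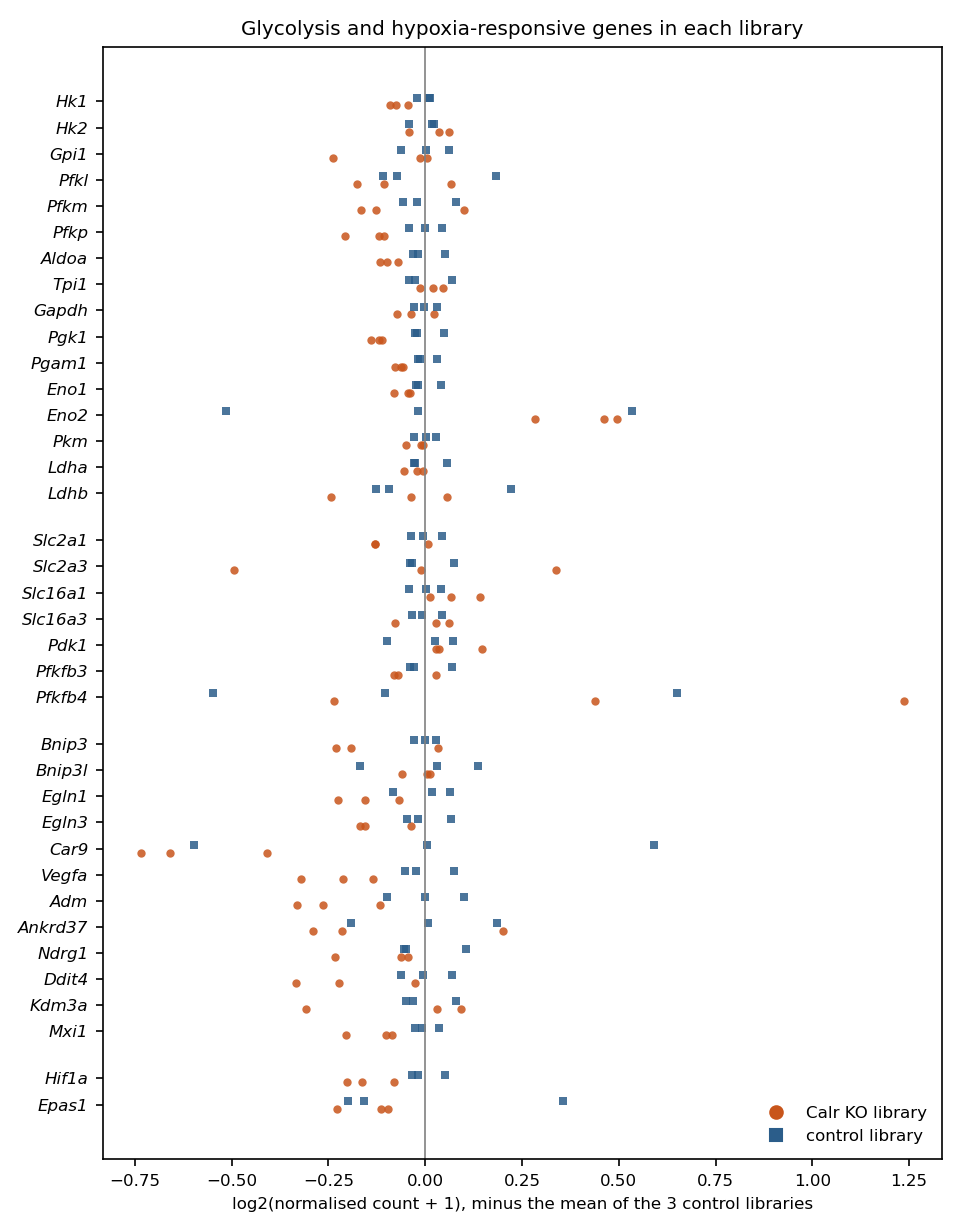
Log2 values of the 37 tested genes in each library, as the difference from the mean of the 3 control libraries (x axis), by gene (y axis) in the 4 roles, with circles for Calr KO and squares for control. In 10 genes, among them Pgk1, Aldoa, Vegfa and Hif1a, all circles lie left of all squares, while Pfkfb4, Eno2, Slc2a3 and Car9 spread widely within a group.

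The lower values were not spread evenly over libraries. Control replicate 1 was the highest of the 6 libraries in 16 of 37 members, and Calr KO replicate 3 was the lowest in 17. For the 16 tested enzymes the median deviation from the control mean was -0.03, -0.05 and -0.07 (log2) in Calr KO replicates 1, 2 and 3, and 0.03, -0.02 and -0.03 in the controls. For the 12 other HIF targets it was -0.06, -0.19 and -0.22 in Calr KO and 0.01, -0.0062 and -0.03 in control. Calr KO replicate 1 thus lay closest to the controls in both groups of genes.

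The enzymes of lower glycolysis held the highest levels of the 38 genes. Per kilobase of the longest annotated transcript, Pkm, which encodes pyruvate kinase, led in control cells with 29332 ± 595 normalised counts per kb (SD, n = 3). Eno1 followed with 22253 ± 567, and Pgk1, Gapdh, Aldoa, Ldha and Pgam1 lay between 10903 and 14742. Neighbours in that order such as Aldoa (12017 ± 368) and Ldha (11786 ± 402) did not differ beyond their spread. The order rests on the longest transcript as the length of each gene, 3289 bases for Gapdh and 2432 for Pkm. Other lengths were not tried. Triosephosphate isomerase Tpi1 had 5644 ± 235. The first steps were far lower, with Hk1 at 816 ± 10.8, Hk2 at 645 ± 15.9 and Pfkl at 874 ± 98.8 per kb. All 17 enzymes together took 1.94%, 1.90% and 1.91% of the normalised counts in the Calr KO libraries and 2.04%, 1.97% and 1.96% in the controls.

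**Figure D2:**
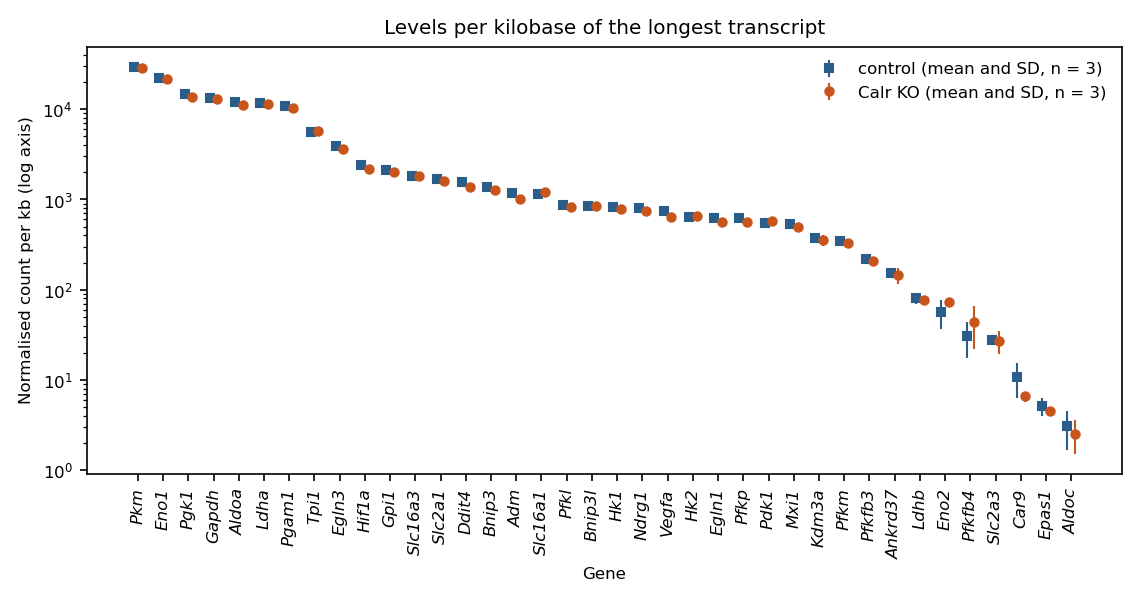
Normalised counts per kilobase of the longest annotated transcript (y axis, log scale) of all 38 genes (x axis), ordered by their control level, as the mean and SD of 3 libraries in each group. The order runs from Pkm at 29332 in control to Aldoc at 3.06, and the 2 groups nearly coincide for the abundant genes.

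Pgk1, Pfkp and Aldoa showed the clearest separation among the enzymes. Pgk1, phosphoglycerate kinase, makes the first ATP of the pathway (ENSMUSG00000062070.12, protein coding, plus strand of chromosome X, 106187100 to 106203699 on GRCm38). The Calr KO libraries held 24782, 24890 and 24428 normalised counts and the controls 27797, 26507 and 26410. The gap between the groups was wider than the range within either. The log2 change was -0.12 (95% interval -0.18 to -0.07, adjusted p = 0.132), and the nearest it came to the threshold in any setting was 0.0574, after a correction for GC content and length. Pfkp, the platelet form of phosphofructokinase, which commits sugar to the pathway, held 4986, 4935 and 4643 in Calr KO and 5359, 5531 and 5207 in control. These did not overlap either, and the change was -0.14 (-0.23 to -0.06, adjusted p = 0.309). Its exons overlap those of Pitrm1 on the opposite strand, a gene with 50.5% of its counts, and whether the counting used strand is not stated in the labels. Aldoa, which splits fructose bisphosphate, held 17734, 17385 and 17174 in Calr KO and 19264, 18385 and 18196 in control. The highest value was that of control replicate 1, and the change was -0.09 (-0.16 to -0.03, adjusted p = 0.338).

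Pgam1, Eno1 and Hk1 were also lower in every Calr KO library, by less. Phosphoglycerate mutase Pgam1 had 18484 ± 145 in Calr KO and 19352 ± 366 in control (change -0.07, -0.12 to -0.02, adjusted p = 0.448). Enolase Eno1 had 43430 ± 668 and 45107 ± 1149 (-0.05, -0.10 to -0.0044, adjusted p = 0.526). Hexokinase Hk1, which traps glucose in the cell, had 3325 ± 56.7 and 3490 ± 46.3 (-0.07, -0.15 to 0.01, adjusted p = 0.617). In all, 6 of the 16 tested enzymes had groups that did not overlap, each lower in Calr KO (7.28% of all genes), and 5 of 16 were lower at an unadjusted p under 0.05 (4.28% of all genes). The median change of the 16 was -0.07, and it was -0.0321 when Calr KO replicate 3 was left out and -0.0419 when control replicate 1 was. With a constant prior variance 2 of the 16 were lower at an unadjusted p under 0.05, as were 3.87% of all genes.

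The remaining enzymes overlapped between groups. Pkm was at -0.02 (95% interval -0.07 to 0.02), Gapdh, the usual reference transcript, at -0.03 (-0.09 to 0.03), and Ldha, the lactate-forming dehydrogenase, at -0.03 (-0.09 to 0.04), so any difference in these 3 was small. Ldha was at 0.0014 without control replicate 1. Glucose phosphate isomerase Gpi1 was at -0.08 (-0.22 to 0.06), with Calr KO replicate 3 at 5725 and the other 5 libraries between 6467 and 7056. Pfkl and Pfkm, the liver and muscle forms of phosphofructokinase, were at -0.07 (-0.26 to 0.12) and -0.06 (-0.24 to 0.11). Pfkm shares 18 exonic bases with Senp1 on the opposite strand, which has 128% of its counts. Tpi1 and Hk2, the inducible hexokinase, were at 0.02 each, with intervals of -0.06 to 0.10 and -0.07 to 0.11. The neuronal enolase Eno2, a low gene, held 185, 215 and 210 in Calr KO and 150, 221 and 106 in control. Its controls spread over more than a 2-fold range around the Calr KO values, and its change of 0.41 had an interval of -0.10 to 0.93. The heart-type dehydrogenase Ldhb was at -0.07 (-0.43 to 0.28), and Aldoc, not tested, had 7.06 ± 2.91 against 8.52 ± 3.92 in control cells.

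**Figure D3:**
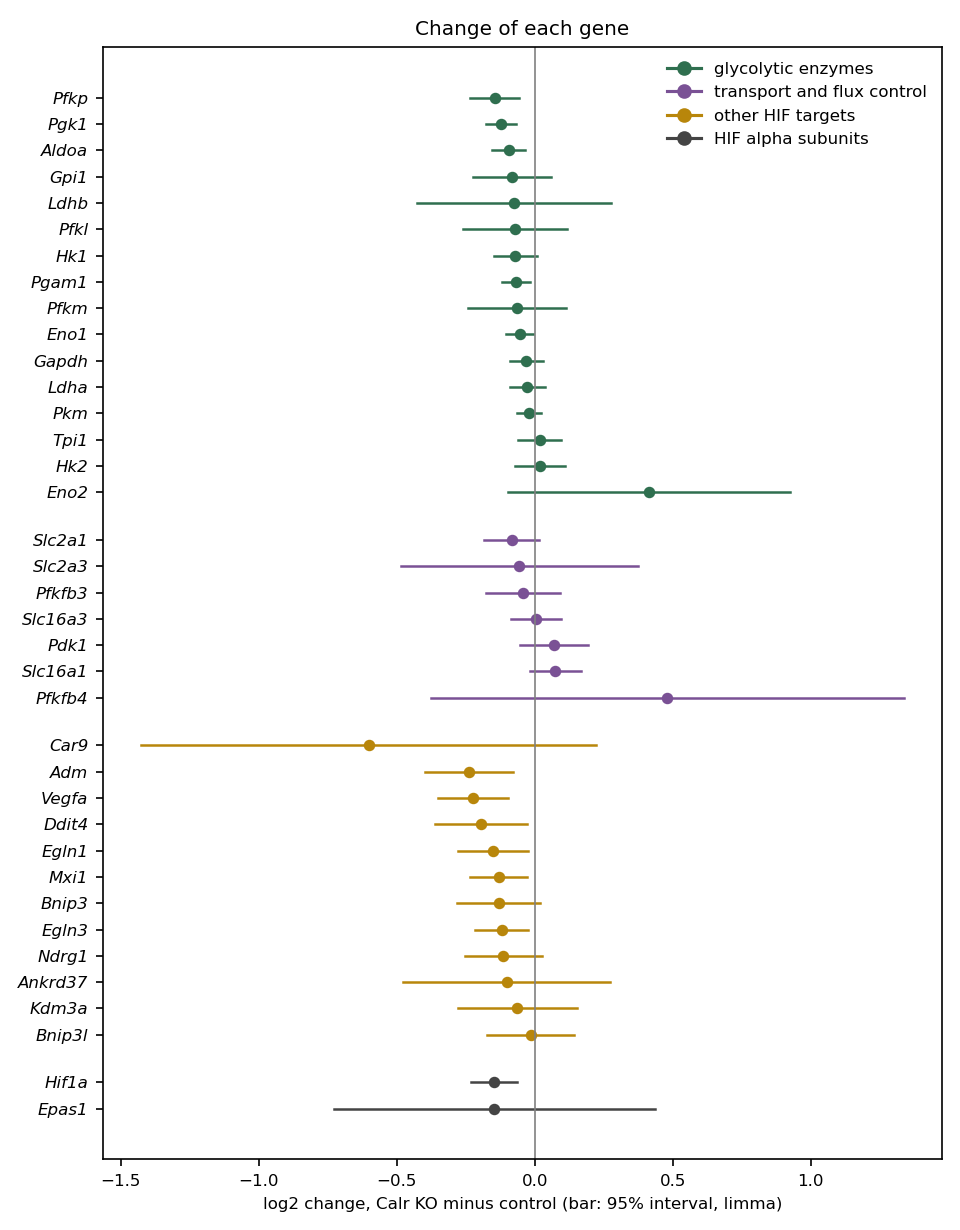
Log2 change of each of the 37 tested genes, Calr KO minus control (x axis), with its 95% limma interval (bars), sorted within each of the 4 roles (colours). All 12 other HIF targets lie left of 0, the 7 genes of transport and flux control lie on both sides of it, and the widest intervals belong to Car9 and Pfkfb4.

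Isozyme shares differed by small amounts. Per kilobase, Hk1 made up 54.3% ± 0.751 of the summed level of Hk1 and Hk2 in Calr KO and 55.9% ± 0.285 in control (SD, n = 3), and the groups did not overlap. Of the 3 phosphofructokinases Pfkl held 48.3% ± 2.83 and 47.5% ± 2.43, Pfkp 32.6% ± 0.714 and 33.7% ± 1.11, and Pfkm 19.2% ± 2.12 and 18.7% ± 1.42. Ldhb was 0.661% ± 0.0801 and 0.686% ± 0.107 of the summed RNA level of Ldha and Ldhb, so Ldha made up nearly all of that RNA. Eno2 was 0.339% ± 0.0292 of the 2 enolases in Calr KO and 0.255% ± 0.0953 in control. These shares rest on the longest transcript as the length of each gene, 8681 bases for Pfkp and 3730 for Pfkl. Undivided by length, Pfkp held more normalised counts than Pfkl in control, 5366 ± 163 against 3260 ± 369.

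Genes of transport and flux control showed no common direction, with 3 of 7 below 0, a median of 0.0037 and 0 whose groups did not overlap. Slc2a1, the main glucose carrier GLUT1, held 5519, 5018 and 5016 in Calr KO and 5651, 5469 and 5346 in control. Calr KO replicate 1 lay among the controls, and the change was -0.08 (-0.18 to 0.02, adjusted p = 0.642). Slc2a3, the carrier GLUT3, was 1.60% ± 0.0338 of the 2 carriers per kilobase in control; its Calr KO values of 170, 217 and 121 lay on both sides of the control values of 180, 167 and 167. The lactate exporter Slc16a3 (MCT4) was at 0.0037 (-0.09 to 0.09) and was at -0.0070 under upper-quartile scaling. The related carrier Slc16a1 (MCT1) had 5306 ± 241 in Calr KO and 5038 ± 145 in control, a change of 0.07 (-0.02 to 0.17, adjusted p = 0.659). Pdk1, a kinase that inhibits pyruvate dehydrogenase, was at 0.07 (-0.05 to 0.19).

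The kinases that make and remove fructose 2,6-bisphosphate, the activator of phosphofructokinase, differed in their noise. Pfkfb3 was at -0.04 (-0.17 to 0.09). Pfkfb4 held 137, 238 and 85.4 in Calr KO and 93.6, 68.5 and 159 in control. Each group spanned more than a 2-fold range and the groups overlapped throughout. Its SD between wells on the log2 scale was 0.67, 3.52 times the value that the variance trend gives at its level, the largest such ratio among the 37 members. The change was 0.48 with an SE of 0.38 (adjusted p = 0.770).

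All 12 other HIF targets were below 0, with a median change of -0.13, the lowest of the 3 larger roles. At an unadjusted p under 0.05, 6 of 12 were lower (4.28% of all genes), and 3 of 12 had groups that did not overlap, each lower in Calr KO (7.28% of all genes). Without Calr KO replicate 3 the count of 6 was 2, where 3.53% of all genes were lower, and without control replicate 2 it was 3 (3.58%). It was 4 without Calr KO replicate 2 (4.06%) or control replicate 1 (4.01%), and 2 with a constant prior variance (3.87%). Without control replicate 1 or 3, 11 of the 12 stayed below 0, and without Calr KO replicate 2, 10 did.

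The secreted peptides gave the clearest differences. Vegfa, the main growth factor for blood vessels (minus strand of chromosome 17, 46016993 to 46032369), held 2362, 2078 and 2238 in Calr KO and 2732, 2554 and 2505 in control. The groups did not overlap, and the change was -0.22 (-0.35 to -0.10, adjusted p = 0.27), a level 1.17-fold lower. Adm, the vasodilator adrenomedullin, held 1526, 1379 and 1317 in Calr KO and 1775, 1546 and 1654 in control. Here the highest Calr KO library came close to the lowest control, and the change was -0.24 (-0.40 to -0.08, adjusted p = 0.364). Mxi1, a repressor that competes with MYC for its partner, held 2556, 2531 and 2354 against 2663, 2783 and 2696, again without overlap (-0.13, -0.23 to -0.03, adjusted p = 0.46).

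Feedback and stress genes leaned the same way with some overlap. Egln3, the prolyl hydroxylase most strongly induced by HIF, held 10155, 9355 and 9273 in Calr KO and 10898, 10283 and 10081 in control. Only Calr KO replicate 1 reached into the control range, and the change was -0.12 (-0.21 to -0.02, adjusted p = 0.465). Egln1, the main hydroxylase at normal oxygen, was at -0.15 (-0.28 to -0.02, adjusted p = 0.497). Egln3 made up 86.6% ± 0.231 of the summed level of these 2 per kilobase in Calr KO and 86.3% ± 0.591 in control. Ddit4, the mTORC1 inhibitor REDD1, held 2342, 2682 and 2169 in Calr KO and 2720, 2868 and 2617 in control, a change of -0.19 (-0.36 to -0.03, adjusted p = 0.498). Its Calr KO replicate 2 lay inside the control range.

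The mitophagy receptors, the demethylase and the low targets did not separate. Bnip3 held 2493, 2076 and 2131 in Calr KO and 2435, 2484 and 2388 in control, so replicate 1 of Calr KO was the highest of all 6; the change was -0.13 (-0.28 to 0.02). Its relative Bnip3l was at -0.01 (-0.17 to 0.14). Ndrg1, a stress-induced gene of membrane traffic, was at -0.11 (-0.25 to 0.03) and the histone demethylase Kdm3a at -0.06 (-0.28 to 0.15). Ankrd37 was at -0.10 (-0.48 to 0.27), and its exons overlap those of Ufsp2 on the opposite strand, which has 546% of its counts. Car9, the membrane carbonic anhydrase often used as a marker of hypoxia, was close to the detection limit, with 11.9, 12.6 and 15.2 in Calr KO and 13.2, 20.6 and 31.4 in control. Its change of -0.60 (-1.43 to 0.22, adjusted p = 0.704) was the largest in size of the list and among the least certain, and an opposite-strand gene, Gm12454, has 126% of its counts.

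**Figure D4:**
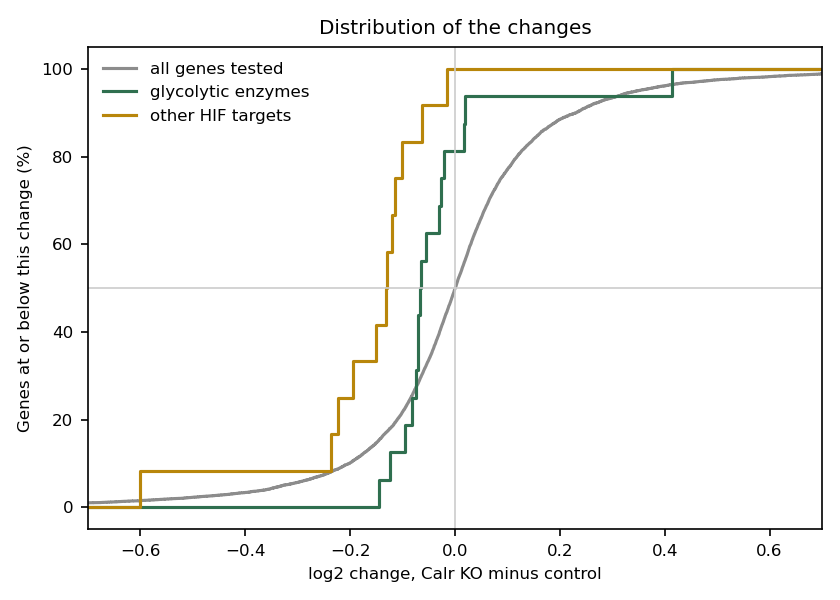
Cumulative share of genes (y axis, %) at or below each log2 change, Calr KO minus control (x axis), for all 13199 genes tested, the 16 tested glycolytic enzymes and the 12 other HIF targets. The curve of all genes crosses 50% near 0, that of the enzymes at -0.07 and that of the targets at -0.13, and the enzymes span a narrow range apart from Eno2 at 0.41.

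Hif1a, the alpha subunit that drives most of these targets, had 9882, 10145 and 10750 normalised counts in Calr KO against 11098, 11213 and 11774 among the controls. The groups did not overlap, with the highest Calr KO library next to the lowest control. The log2 change was -0.15 (95% interval -0.23 to -0.06, adjusted p = 0.261), with an adjusted p of 0.130 to 0.600 over the other settings. Epas1, which encodes HIF-2 alpha, was nearly absent, at 25.1 ± 1.27 in Calr KO and 28.3 ± 6.59 in control. It made up 0.209% ± 0.0063 and 0.213% ± 0.0547 of the summed alpha subunit level per kilobase. The change of Epas1 was -0.15 with an interval of -0.73 to 0.44. HIF alpha is controlled mainly as a protein, which was not measured.

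The rest of the pathway was read from 6 further lists, in which 1 gene of 94 tested passed over all genes. That gene was P4ha2, a prolyl hydroxylase that matures collagen and a HIF target, and it rose. It held 2019, 1728 and 1855 in Calr KO and 1384, 1339 and 1299 in control, with no overlap. The log2 change was 0.48 (95% interval 0.33 to 0.62, adjusted p = 0.0149), and the call was lost in 4 of the 6 fits that left a library out: leaving out Calr KO replicate 1 gave an adjusted p of 0.0634, leaving out its replicate 3 gave 0.0679, and leaving out replicates 2 and 3 of the control gave 0.0714 and 0.0843, while it was 0.301 with a constant prior variance. Of the 32 tested further HIF targets 20 were below 0 with a median of -0.05, and 6 were lower and 4 higher at an unadjusted p under 0.05, against 4.28% and 4.60% of all genes. Among them the collagen lysyl hydroxylase Plod2 (4169 ± 161 against 4719 ± 128) and Cited2, which competes with HIF for its coactivator CBP, (3214 ± 127 against 3560 ± 72.3), were at -0.18 (adjusted p = 0.186) and -0.15 (adjusted p = 0.317). The further targets therefore included genes on both sides, unlike the 12 listed ones; that difference was not tested.

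Branches that leave or enter glycolysis gave 0 calls by limma. In the pentose phosphate pathway 7 of 10 tested genes were below 0 with a median of -0.05, and 3 were lower at an unadjusted p under 0.05 (4.28% of all genes). They were H6pd (-0.23), which makes NADPH inside the ER, Prps2 (-0.17), which makes the ribose donor of nucleotides, and Pgd (-0.10). In glycogen and gluconeogenesis 10 of 13 were below 0 with a median of -0.08, and the branching enzyme Gbe1 was the 1 lower at an unadjusted p under 0.05 (769 ± 77.5 against 934 ± 44.7, -0.28, adjusted p = 0.339). G6pc3 and Pygb followed at -0.23 and -0.14. Of 14 tested genes listed under pyruvate entry into mitochondria (carriers, enzymes and regulators) 9 were below 0 with a median of -0.01. Pyruvate carboxylase, Pcx, was at -0.22 (adjusted p = 0.381), Dlat at -0.15 and the carrier subunit Mpc2 at 0.12.

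In oxygen sensing and HIF control outside the members, 7 of 15 tested genes were below 0 and the median was 0.01. At an unadjusted p under 0.05, 2 of the 15 were lower and 0 higher, against 4.28% and 4.60% of all genes. Os9 was at -0.14 (adjusted p = 0.476), the coactivator Crebbp at -0.18 (adjusted p = 0.552) and Hif1an, the asparagine hydroxylase of HIF, at -0.16 (adjusted p = 0.567). Of 21 further glycolytic isozymes and regulators 11 were too low to test. The 10 tested had a median of 0.10 and 4 below 0. Bsg, the chaperone of the lactate carriers, had 9237 ± 240 against 9607 ± 303 (-0.06, adjusted p = 0.679), Adpgk was at -0.10, and Slc2a4 at 0.60 from a low level (28.3 ± 8.14 against 19.0 ± 9.03).

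**Figure D5:**
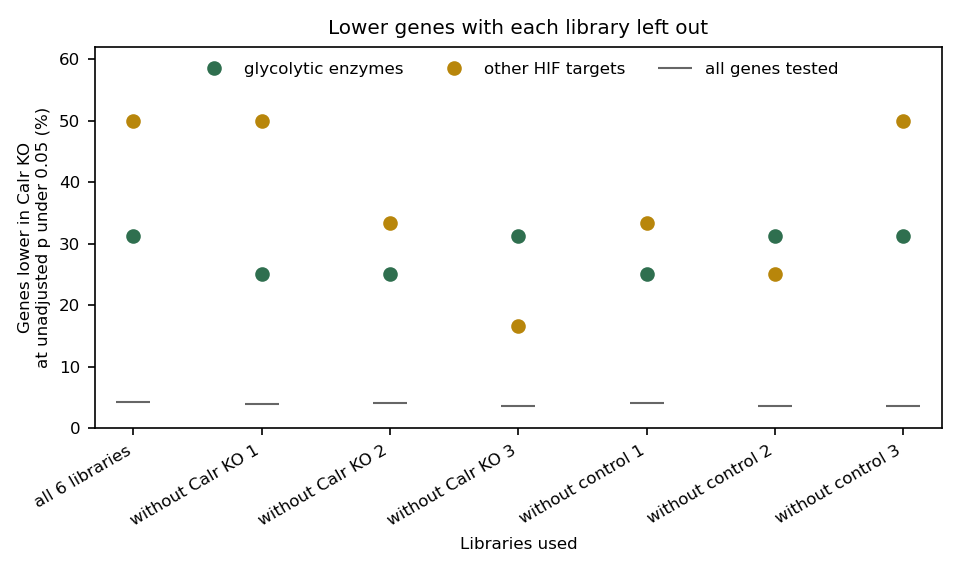
Share of genes lower in Calr KO at an unadjusted p under 0.05 (y axis, %), with all 6 libraries and with each library left out in turn (x axis), for the 16 tested glycolytic enzymes, the 12 other HIF targets (points) and all genes tested (dashes). The share among other HIF targets was 2 of 12 without Calr KO replicate 3 and 6 of 12 with all libraries, and that of the enzymes was 4 or 5 of 16 throughout.

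Some of the deposited counts lay in genes that share sequence with a member. For 7 members at least 5% of the 31-base words of the longest transcript recurred in 1 or more other genes with a mean of at least 10. The copies of Eno1, among them the near-identical Eno1b, held 12.4% of the counts of Eno1, those of Pgk1 10.7%, of Gapdh 9.84% and of Pgam1 5.59%. The Pkm pseudogene Gm6560 held 0.492% of the counts of Pkm, and Gm49759, an annotation that overlaps the exons of Pkm on the same strand and is no copy, held 7.16%. Bnip3l and Bnip3 had copies at 4.20% and 2.18%. When these genes, Gm49759 included, were summed into their member, the changes were -0.13 for Pgk1 (adjusted p = 0.112), -0.06 for Eno1, -0.03 for Gapdh, -0.03 for Pkm and -0.07 for Pgam1, and 0 members passed. The separate values of these 7 genes are uncertain to that extent.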

How the data were processed

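Expression was read from the deposited table, in which the authors had normalised gene counts with DESeq2, a signal per gene and library that is not per length. Tools listed in the submitters' processing notes, without roles, are Salmon 0.14.1, STAR 2.6.1d and DESeq2 1.34.0, with the build mm10. Columns were matched to samples by the column names in the labels. The commonest low value was taken as 1 read, so that libraries came to roughly 13571210 to 14918661 reads. Only 56.9% to 70.8% of values up to 20 reads were whole multiples within 0.02, so no count model was used. Genes averaging 10 or more were put on the log2(value + 1) scale and fitted in limma 3.58.1 (R 4.3.3, variance prior following the mean, two-sided), and p-values were adjusted by Benjamini-Hochberg over all 13199 genes tested; this understates changes of low genes. The procedure was tested on simulated data. Members and lists were chosen with earlier results of these data known. All 38 members were named, and of 6 further lists the genes that passed and the 3 with the smallest p. Lengths, GC content and positions are from GENCODE M21 (GRCm38) and windows from RefSeq. Where a symbol had 2 gene IDs, as Aldoa, the protein-coding entry was used. Alternatives were other pseudocounts, filters, scalings and variance priors, voom weights, a replicate block, a GC content and length correction and leaving out each library; summing genes that share 31-base words into members was added after seeing the data.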

Additional observations from a re-analysis of the deposited data

How the results depend on the processing

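No member passed an adjusted p of 0.05 by limma in the reported fit or in any of 19 alternatives, in which the lowest adjusted p was 0.0574. Over all genes 37 passed, 2 with a constant prior variance and 20 to 34 with a library left out. With that prior 5 members were lower at an unadjusted p under 0.05, 2 of them enzymes and 2 other HIF targets, where 3.87% of all genes were. With a library left out, the count of other HIF targets lower at an unadjusted p under 0.05 was 2 to 6. Of all genes 3.53% to 4.06% were lower in those fits. The enzyme median was -0.0681 to -0.0321. Of the 37 tested members 23 were below 0 and 4 above 0 in every setting that tested them. The other 10 changed sign in some. Slc16a3 was at -0.0070 under upper-quartile scaling. With a library left out Slc16a3 ranged from -0.0248 to 0.0443, Hk2 from -0.0025 to 0.0488, Tpi1 from -0.0034 to 0.0517, Bnip3l from -0.10 to 0.0538, Kdm3a from -0.14 to 0.0610, Ldhb from -0.14 to 0.0358, Slc2a3 from -0.25 to 0.16, Ldha from -0.0414 to 0.0014, Epas1 from -0.24 to 0.0323 and Pfkl from -0.14 to 0.0196. The cause was not tested.

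With the replicate number as a block 26 genes passed and 0 members did. At an unadjusted p under 0.05 by limma, 14 members were lower under that block, against 4.06% of all genes. Of the 14, 7 were other HIF targets. Over all genes tested, deviations of same-numbered libraries correlated at -0.06, -0.01 and 0.0014. The libraries did not each correlate best with their own number. In both groups the median deviation of enzymes and of other HIF targets fell from replicate 1 to replicate 3. Whether same-numbered samples share more than a number was not tested. Car9, Epas1 and Pfkfb4 carry intervals that leave their direction unresolved. Car9 and Epas1 had means of 17.5 and 26.7, while the SD of Pfkfb4 was 3.52 times the value of the variance trend at its level. The reason for the wide intervals was not tested.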

Other observations

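The pair of Pgk1 copies, Pgk1-rs7 and Gm5537, was chosen after its values were seen. Pgk1-rs7 was listed at 0, 238 and 936 in the Calr KO libraries and at 579, 945 and 555 in the controls (limma adjusted p = 0.676). Gm5537 held 2604, 2491 and 1618 in the same Calr KO libraries and 2395, 1969 and 2282 in the controls. Their sum was 2604, 2729 and 2553 in Calr KO and 2974, 2914 and 2837 in control, so the sum spread far less between wells than Pgk1-rs7 alone. Pgk1-rs7 shares 68.2% and Gm5537 68.1% of the 31-base words of Pgk1, and the placement of reads between them was not tested. The Gapdh copy Gm7336 held 4056 ± 43.2 in Calr KO and 4308 ± 209 in control, and the Eno1 copy Gm4735 held 3371 ± 84.5 and 3731 ± 108 (log2 change -0.15, limma adjusted p = 0.29).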
